A study of Mus musculus with 12 samples.

Results

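The metabotropic glutamate receptors measured here are the products of 6 mouse genes, Grm2, Grm3, Grm4, Grm5, Grm7 and Grm8. They were taken by gene symbol, as every probe set that the platform annotation assigns to 1 of these genes, out of 18193 genes on the array. That gave 9 probe sets, 2 for Grm5, 3 for Grm7 and 1 for each of the others, and 8 of the 9 passed the filter on low signal. One further probe set carries the symbol of Grm2 together with another gene and was left out. None of the 6 genes was called different between ethanol and saline or between Fyn-null and control mice. With 6 against 6 pools the 95% intervals of their main probe sets, those of highest mean, lay between 0.856-fold and 1.16-fold. Other tested probe sets, also not called, reached further. The lower-mean one of Grm5 ran from 1.01-fold to 1.71-fold for ethanol and from 0.619-fold to 1.05-fold for genotype. The second one of Grm7 ran from 1.02-fold to 1.22-fold for genotype. Among the genes around these receptors a small set was called after ethanol: the adenylyl cyclases Adcy8 and Adcy9, the receptor kinase Grk5, the G protein regulator Rgs4 and the cation channel Trpc5. These were 5 of 51 genes followed, beside 6.69% of all genes. With a measure of RNA quality as a covariate 0 of the 5 were called. That measure was itself lower in ethanol than in saline pools of each genotype, so it cannot be fully separated from treatment. The call of Trpc5 was also lost without any 1 of 8 pools, and that of Rgs4 when its 3 probe sets were averaged.

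Medial prefrontal cortex (PFC) of adult male mice was profiled on 12 Affymetrix whole-genome arrays. The paper states that its PFC dissections take in adjacent motor cortex. Mice were obtained at 12 weeks of age and were habituated to the facility before the experiments. The 4 groups of 3 arrays were Fyn-null mice given ethanol, Fyn-null mice given saline, control mice given ethanol and control mice given saline. Every mouse had received saline injections on 3 days before the test injection, the ethanol dose was 3 g/kg into the peritoneum, and tissue was taken 4 hours later. Each array held RNA pooled from 3 mice, so the spread among arrays is that among pools and not among single animals. Fyn-null mice were of the stock B6;129S7-Fyntm1Sor/J and controls of the stock B6129SF2/J, so Fyn, a kinase of the Src family, and stock cannot be told apart. All measurements are log2 RMA values (robust multi-array average, in which 1 unit is a doubling of signal), and a call means a Benjamini-Hochberg adjusted p below 0.05 in limma. Values are listed in the order of the pool numbers in the labels, which are 1, 2 and 3 for Fyn-null ethanol, 2, 3 and 4 for Fyn-null saline, 1, 2 and 4 for control ethanol and 1, 2 and 3 for control saline.

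Metabotropic glutamate receptors are G protein-coupled receptors for glutamate, the main excitatory transmitter of the cortex. Group I receptors, which include the product of Grm5, sit mainly at the edge of the postsynaptic density and act through Gq, phospholipase C and release of stored calcium. Group II (Grm2, Grm3) and group III (Grm4, Grm7, Grm8) receptors act through Gi/o proteins, lower cyclic AMP and mostly restrain transmitter release from the presynaptic side, while Grm3 is also made by astrocytes.

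Array medians were 5.40 to 5.48 log2 units. The 4 neuronal markers had means above those of at least 98.8% of probe sets. The higher-mean probe set of Fyn averaged -0.65 in Fyn-null relative to control pools after ethanol (SE 0.228, limma adjusted p = 0.241) and -0.24 after saline (SE 0.228, adjusted p = 1), and was not called. The pool labelled control saline 2 read 8.74 and the pool labelled Fyn-null saline 4 read 9.45, each inside the range of the other genotype. The lower-mean Fyn probe set differed less, by -0.22 after ethanol (SE 0.108, limma adjusted p = 0.408) and -0.08 after saline (SE 0.108). There the same pools read 7.53 and 7.75. Other pools, such as control saline 1 (7.65) and Fyn-null ethanol 1 (7.81), also fell inside the range of the other genotype. The doubted pools were picked by the higher-mean probe set, so genotype results without them depend on that choice. The main values that rest on these doubted pools are also given without both. The difference between 3' and 5' control probe sets of Actb and Gapdh is a sign of RNA integrity and labelling. In Fyn-null pools it was 0.39 to 0.63 log2 units after ethanol and 0.76 to 0.85 after saline. In control pools it was 0.40 to 0.48 after ethanol and 0.54 to 0.99 after saline. Ethanol and saline pools were thus apart within each genotype. Some markers also moved. After ethanol 3 of 4 endothelial markers were called lower (Cldn5 by -0.64, Flt1 by -0.41 and Tek by -0.92). The mean of the 4 was 6.21 to 6.69 in ethanol pools and 6.86 to 7.07 in saline pools. The 3 measured striatal markers did not move together after ethanol. Ppp1r1b was called higher, by 0.21, while Drd1 (-0.18) and Rgs9 (0.016) were not called. In tissue RNA, fewer cells of a type and less RNA per cell cannot be told apart.

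Grm5 encodes mGluR5, the group I receptor that is abundant in forebrain neurons and is coupled by Homer and Shank scaffolds to NMDA receptors. Its higher-mean probe set, which stood for the gene, read 10.10, 9.93 and 9.89 in Fyn-null ethanol pools and 9.99, 9.89 and 9.89 in Fyn-null saline pools. Control ethanol pools read 9.94, 9.74 and 10.14, and control saline pools 9.97, 9.91 and 10.02. All 4 groups overlapped, and the highest and lowest of the 12 pools were both control ethanol pools. Group means ran from 9.92 ± 0.0611 in Fyn-null saline to 9.97 ± 0.11 in Fyn-null ethanol and 9.97 ± 0.0515 in control saline (SD, n = 3 each), with control ethanol at 9.94 ± 0.20, so no neighbours in that order differed by more than their spread. Between ethanol and saline over both genotypes the difference was 0.0096 (95% interval -0.14 to 0.16, limma adjusted p = 0.951), and between Fyn-null and control over both treatments -0.0037 (-0.15 to 0.15, adjusted p = 0.992). With the probe sets of Grm5 averaged, these became 0.20 (limma adjusted p = 0.22) and -0.16 (adjusted p = 0.575).

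The lower-mean probe set of Grm5 behaved otherwise and was the most variable of the receptor probe sets tested. It read 8.10, 7.66 and 7.57 in Fyn-null ethanol pools and 7.67, 7.45 and 7.65 in Fyn-null saline pools. Control ethanol pools read 8.68, 8.19 and 8.0, and control saline pools 7.87, 7.07 and 8.15. The 3 control ethanol pools were high, although the lowest of them was under Fyn-null ethanol pool 1 and under control saline pool 3. The lowest of all 12 pools was the one labelled control saline 2, whose Fyn signal was in the Fyn-null range. Its SD within groups was 0.365, larger than that of 96.8% of the 24770 probe sets tested, against 0.0958 to 0.137 for the other 7 receptor probe sets. Over the 12 arrays the Pearson correlation between the probe sets of Grm5 was 0.16, a description with no test. Which exons each of them reads is not stated in the sources.

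In control mice this probe set averaged 8.29 ± 0.351 after ethanol and 7.69 ± 0.561 after saline (SD, n = 3 each). The difference was 0.60 (95% interval 0.06 to 1.14, limma adjusted p = 0.222), with overlapping groups, and without both doubted pools it was 0.28 (adjusted p = 0.455). Fyn-null mice averaged 7.78 ± 0.285 after ethanol and 7.59 ± 0.123 after saline, a difference of 0.19 (-0.35 to 0.73, adjusted p = 0.835), which was 0.02 without Fyn-null ethanol pool 1. The difference between these responses was itself tested and was -0.41 (-1.18 to 0.35, adjusted p = 0.992), or -0.07 without both pools. After ethanol, Fyn-null minus control pools gave -0.51 (-1.05 to 0.03, adjusted p = 0.394), or -0.32 without control ethanol pool 1, and over both treatments -0.31 (-0.69 to 0.08, adjusted p = 0.556), or -0.49 without both pools (adjusted p = 0.0917). The saline difference, -0.10 with all pools, was -0.45 without both (adjusted p = 0.682). After ethanol the mean over the 4 excitatory neuron markers was 9.59 to 9.70 in Fyn-null and 10.07 to 10.17 in control pools, 0 of 4 called. Fyn-null minus control gave -0.76 for Camk2a, -0.48 for Slc17a7, -0.45 for Neurod6 and -0.14 for Tbr1. Groups overlapped only for Tbr1, while 20.3% of all probe sets did not overlap in that comparison. The oligodendrocyte markers were also lower (-0.34 to -0.13), and the 4 neuronal markers ran from -0.05 to 0.14. The part of cell types in the Grm5 value was not tested.

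**Figure D1:**
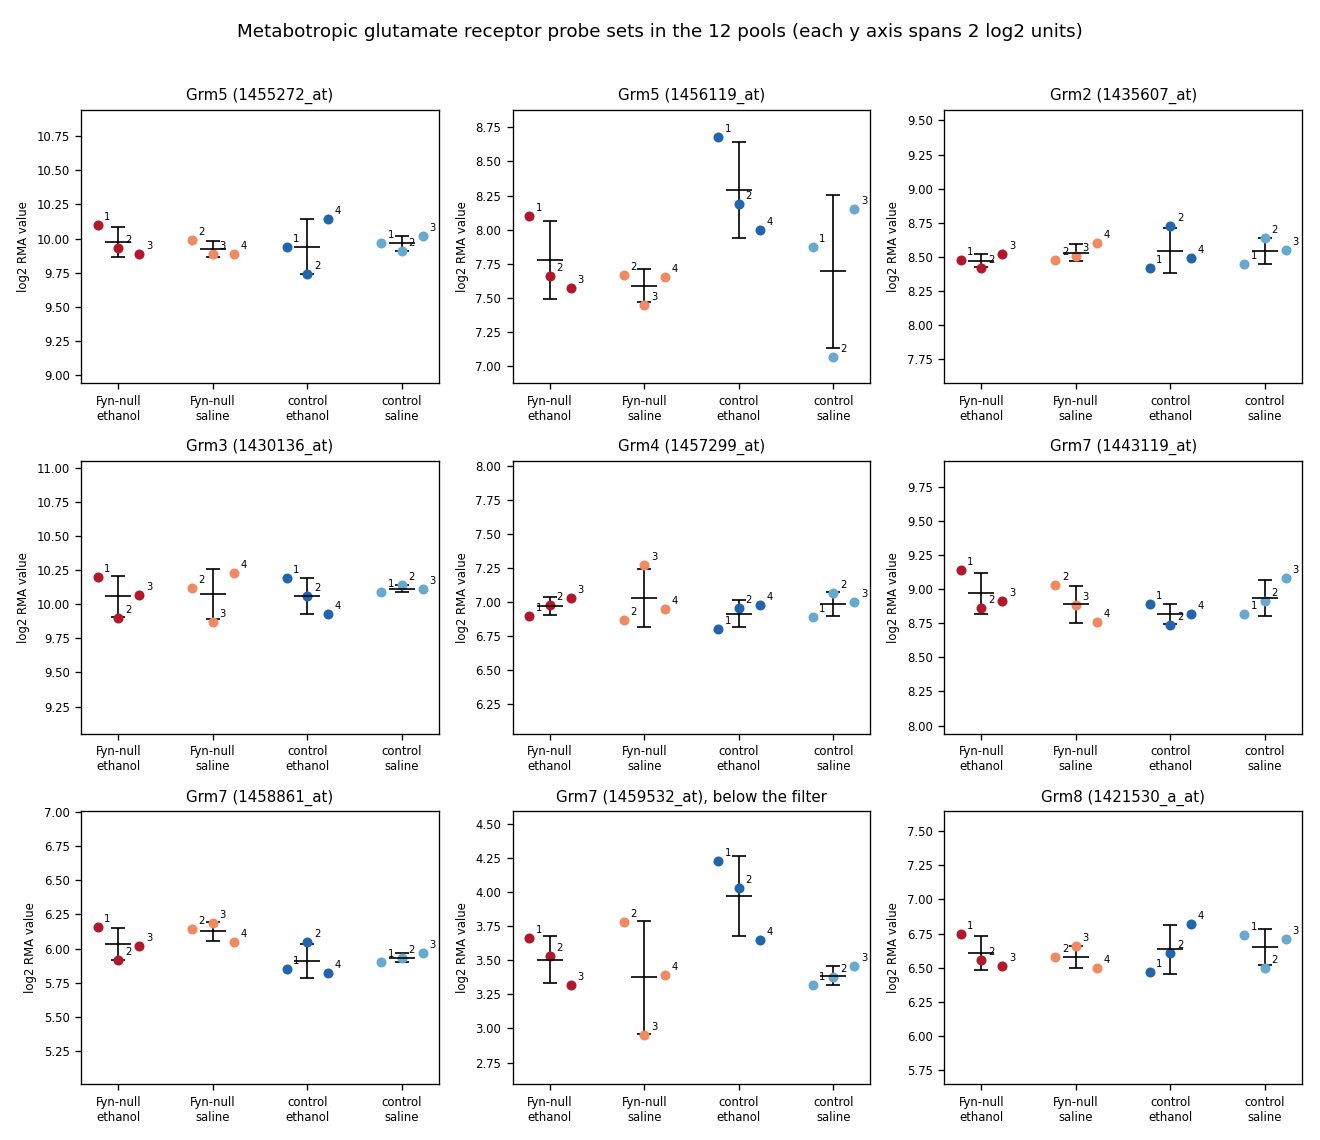
Log2 RMA value (y axis, 2 log2 units in every panel, each with its own range) of the 9 receptor probe sets in each of the 12 pools, by group (x axis). Points are pools with their label numbers, the long bar is the group mean and the short bars are ± 1 SD (n = 3). Most groups overlap; the lower-mean Grm5 probe set is the widest of the tested ones, from 7.07 to 8.68, and the Grm7 probe set below the filter runs from 2.95 to 4.23.

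Grm2 encodes mGluR2, a presynaptic autoreceptor of glutamate terminals. Its probe set read 8.48, 8.42 and 8.52 in Fyn-null ethanol pools and 8.48, 8.51 and 8.60 in Fyn-null saline pools. In control mice the values were 8.42, 8.73 and 8.49 after ethanol and 8.45, 8.64 and 8.55 after saline. The groups overlapped in all pairs, with control ethanol pool 2 the highest of the 12. Group means spanned 8.47 ± 0.0476 in Fyn-null ethanol, 8.53 ± 0.0607 in Fyn-null saline, 8.55 ± 0.164 in control ethanol and 8.55 ± 0.0978 in control saline (SD, n = 3 each). Ethanol against saline gave -0.03 (-0.16 to 0.11, limma adjusted p = 0.828), and Fyn-null against control -0.04 (-0.18 to 0.09, adjusted p = 0.83).

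Grm3 encodes mGluR3, the other group II receptor, made by neurons and glia. Fyn-null ethanol pools read 10.20, 9.90 and 10.07 and Fyn-null saline pools 10.12, 9.87 and 10.23. Control pools read 10.19, 10.06 and 9.93 after ethanol and 10.09, 10.14 and 10.11 after saline. The highest and the lowest of the 12 were both Fyn-null saline pools, and control saline pools lay closest together (SD 0.0248, n = 3). Over both genotypes, ethanol pools differed from saline pools by -0.03 (-0.20 to 0.13, limma adjusted p = 0.822), and Fyn-null from control pools by -0.02 over both treatments (-0.18 to 0.14, adjusted p = 0.934). The mean of 5 astrocyte markers was 8.79 to 9.13 in ethanol pools and 8.95 to 9.09 in saline pools, with 0 of 5 called.

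Among group III receptors, Grm4 encodes mGluR4, known best from cerebellar parallel fibre terminals and inputs to the globus pallidus. It read 6.90, 6.98 and 7.03 in Fyn-null ethanol pools and 6.87, 7.27 and 6.95 in Fyn-null saline pools. The control values were 6.80, 6.96 and 6.98 after ethanol and 6.89, 7.07 and 7.00 after saline. Fyn-null saline pool 3 was the highest and the rest lay within a narrow band in which the groups overlapped. The ethanol difference over both genotypes was -0.07 (-0.22 to 0.09, limma adjusted p = 0.597) and the genotype difference over both treatments 0.05 (-0.10 to 0.21, adjusted p = 0.832).

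Grm7 encodes mGluR7, a receptor of low glutamate affinity placed in the active zone of presynaptic terminals. The probe set that stood for it read 9.14, 8.86 and 8.91 in Fyn-null ethanol pools and 9.03, 8.88 and 8.76 in Fyn-null saline pools. Control ethanol pools read 8.89, 8.74 and 8.82 and control saline pools 8.82, 8.91 and 9.08. Group means were highest in Fyn-null ethanol (8.97 ± 0.15) and lowest in control ethanol (8.82 ± 0.0789), with Fyn-null saline (8.89 ± 0.137) and control saline (8.94 ± 0.132) between them (SD, n = 3 each), and every pair of groups overlapped. This gene had the largest interaction in size among the 6, 0.20 (-0.12 to 0.52, limma adjusted p = 0.992), made up of a response of 0.08 in Fyn-null mice and -0.12 in control mice, neither called. After ethanol the genotypes differed by 0.15 (-0.07 to 0.38, adjusted p = 0.556). Without Fyn-null ethanol pool 1 that difference was 0.07 and the interaction 0.12, and without control saline pool 3 the control response was -0.05 and the interaction 0.13. Over both genotypes the ethanol difference was -0.02 (-0.19 to 0.14, adjusted p = 0.9), and over both treatments the genotype difference was 0.05 (-0.11 to 0.22, adjusted p = 0.836). Averaging the Grm7 probe sets that passed the filter gave -0.04 for ethanol, 0.11 for genotype and 0.07 for the interaction.

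The second probe set of Grm7 was the only receptor probe set whose saline groups did not overlap. It read 6.16, 5.92 and 6.02 in Fyn-null ethanol pools and 6.14, 6.19 and 6.05 in Fyn-null saline pools. Control pools read 5.85, 6.05 and 5.82 after ethanol and 5.90, 5.93 and 5.97 after saline. All 3 Fyn-null saline pools were higher than all 3 control saline pools, whereas the ethanol groups overlapped. The saline difference was 0.19 (SE 0.0886, limma adjusted p = 1), or 0.23 without both doubted pools (adjusted p = 0.676), and 1 of the 8 receptor probe sets not overlapping stands beside 5.16% of all 24770 (2.94% with Fyn-null higher). Over both treatments the difference between Fyn-null and control pools was 0.16 (0.03 to 0.29, limma adjusted p = 0.379). The third probe set of Grm7, with a mean of 3.56, was below the filter, and the correlations of Grm7 probe sets with each other over 12 arrays were 0.36, 0.01 and -0.30.

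Grm8 encodes mGluR8, a presynaptic group III receptor of high glutamate affinity. Its probe set read 6.75, 6.56 and 6.51 in Fyn-null ethanol pools and 6.58, 6.66 and 6.50 in Fyn-null saline pools. Control pools read 6.47, 6.61 and 6.82 after ethanol and 6.74, 6.50 and 6.71 after saline. Control ethanol pools held both the highest and the lowest value, and all groups overlapped. Ethanol pools and saline pools differed by 0.0036 (-0.16 to 0.16, limma adjusted p = 0.982), and Fyn-null and control pools by -0.05 (-0.21 to 0.11, adjusted p = 0.846).

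The first comparison across the receptors asked whether acute ethanol moved them. With 6 ethanol against 6 saline pools, limma called 0 of the 8 receptor probe sets, against 6.81% of all probe sets tested (1686 of 24770, 640 higher and 1046 lower). At an unadjusted p under 0.05 there was 1 of 8, the lower-mean Grm5 probe set (0.39, interval 0.01 to 0.78, limma adjusted p = 0.197), against 24.3% of all, and 0 of 8 had groups that did not overlap, against 3.9%. Without both doubted pools it was 0.25. Its difference was larger in size than those of 95.5% of all probe sets, while those of the other 7 ranged from 2.07% for Grm8 to 38.2% for Grm4 on the same scale. For the main probe sets of the 6 genes the 95% intervals reached from -0.22 to 0.16, that is from 0.856-fold to 1.12-fold, and all 6 covered 0.

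Within genotypes the picture was alike. In Fyn-null mice limma called 0 of 8 receptor probe sets between ethanol and saline, against 0.4% of all probe sets, and 0 of 8 had an unadjusted p under 0.05, against 11.7%. In control mice the count was 0 of 8 against 1.43%, with 1 of 8 at an unadjusted p under 0.05, again the lower-mean Grm5 probe set, against 18.9%. No receptor probe set that passed the filter had groups that did not overlap in either response, against 18.1% of all probe sets in Fyn-null and 23% in control mice. The interaction, which tests whether the response differs between the genotypes, was called for 0 of 8 receptor probe sets and for 0% of all, with 0 of 8 at an unadjusted p under 0.05 against 4.13% of all. With 3 pools a group the limits were wider, -0.29 to 0.31 for the response of Fyn-null mice, -0.35 to 0.22 for that of control mice and -0.34 to 0.52 for the interaction over the 6 main probe sets.

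The second comparison asked whether mice lacking Fyn differed from controls. Over both treatments limma called 0 of 8 receptor probe sets and 0% of all, and 1 of 8 had an unadjusted p under 0.05, the second Grm7 probe set, against 11.1% of all, while 0 of 8 had groups that did not overlap, against 0.307%. After ethanol the count was 0 of 8 and 0% of all, with 0 of 8 at an unadjusted p under 0.05 against 13.6%, and 0 of 8 not overlapping against 20.3%. In the basal comparison, after saline, it was again 0 of 8 and 0% of all, with 0 of 8 at an unadjusted p under 0.05 against 1.89%. Without both doubted pools the receptor counts were again 0 of 8, while 669 of all probe sets were called over both treatments and 44 after saline. The 669 compares with 129 without control saline pool 2 alone and 57 without Fyn-null saline pool 4 alone. The intervals of the 6 main probe sets ran from -0.21 to 0.22 over both treatments (0.867-fold to 1.16-fold), from -0.27 to 0.38 after ethanol and from -0.30 to 0.27 after saline. With limma's array weights, whose estimation stopped before it converged, the lower-mean Grm5 probe set was called lower in Fyn-null than in control mice after ethanol (-0.66, adjusted p = 0.0305), in a fit that called 3975 of all probe sets. Without both doubted pools that comparison had 260 of all probe sets called.

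**Figure D2:**
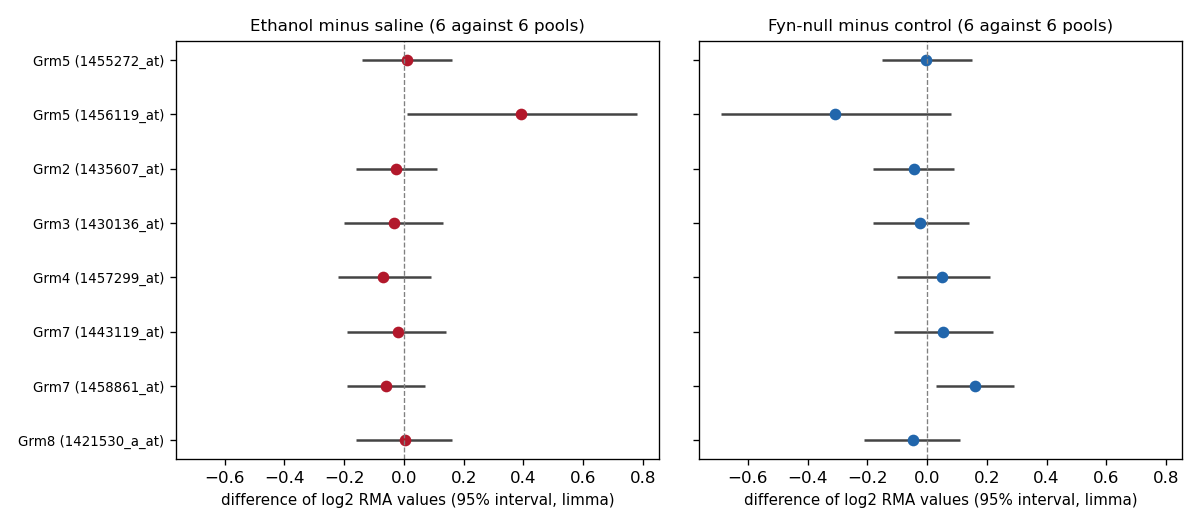
Difference of log2 RMA values (x axis) for the 8 receptor probe sets that passed the filter (y axis), ethanol minus saline on the left and Fyn-null minus control on the right, 6 against 6 pools. Points are limma estimates and lines 95% intervals; the intervals of the 6 main probe sets cover 0, and the lower-mean Grm5 probe set has the widest, from 0.01 to 0.78 on the left.

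**Figure D3:**
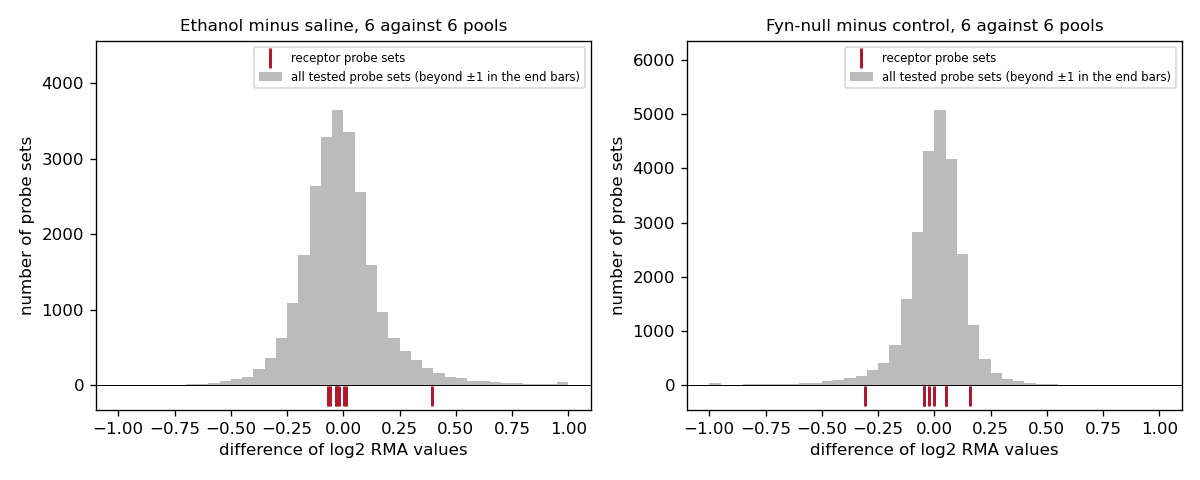
Histogram of the same differences for all 24770 tested probe sets (x axis, log2 units, values beyond ±1 in the end bars, y axis, number of probe sets), with the 8 receptor probe sets as red marks under the axis. For ethanol minus saline 7 marks lie between -0.07 and 0.01 and the lower-mean Grm5 probe set at 0.39, and for Fyn-null minus control the outermost marks are at -0.31 and 0.16.

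The genes that receptors of this family signal through, and those that anchor or silence them, were followed in 5 lists with 62 genes, of which 51 passed the filter. Between ethanol and saline over both genotypes 5 of 51 were called, 2 higher and 3 lower, against 6.69% of the 12323 genes tested. In the other 6 comparisons limma called 0 of 51, with the smallest adjusted p at 0.0621 and 1 to 9 of 51 at an unadjusted p under 0.05, where the shares of all probe sets were 1.89% to 18.9%. Between ethanol and saline pools the 3' to 5' difference and 3 of 4 endothelial markers also differed. With the 3' to 5' difference as a covariate 0 of the 5 were called, and 27 of all probe sets were, against 1686 without it. The covariate was apart between ethanol and saline pools within each genotype, so that fit cannot fully separate RNA quality from treatment. The part of the endothelial markers was not tested.

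Of the 12 Gi/o signaling genes tested, 1 was higher, 1 lower and 10 were not called, where 6.69% of all genes were called. The median difference was -0.05 against -0.04 over all genes. Adcy8, a calcium-stimulated adenylyl cyclase, read 5.81, 5.20 and 5.65 in Fyn-null ethanol pools and 6.01, 6.24 and 6.10 in Fyn-null saline pools. Control pools read 5.45, 5.61 and 5.41 after ethanol and 5.95, 6.05 and 6.19 after saline. The signal was low, with the ethanol pools near 5.15, the cutoff of the filter on means. All 6 ethanol pools were lower than all 6 saline pools, and the gene fell by 0.57 (SE 0.0936, limma adjusted p = 0.00442). Ethanol and saline pools without overlap, in either direction, were found for 3.9% of all probe sets. Adcy9, an adenylyl cyclase that is not stimulated by calcium, went the other way. Its values were 9.94, 9.89 and 9.79 in Fyn-null ethanol pools and 9.46, 9.45 and 9.55 in Fyn-null saline pools, with 9.58, 9.67 and 9.73 in control ethanol pools and 9.33, 9.45 and 9.54 in control saline pools. All 6 ethanol pools were above all 6 saline pools, a rise of 0.305 (SE 0.0598, adjusted p = 0.0113), and all 4 probe sets of the gene were called higher, by 0.30 to 0.45.

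Genes that switch receptors off or speed the G protein cycle had 2 calls among 11 tested, both lower, where 6.69% of all genes were called. Their median was -0.09 against -0.04 over all genes. Grk5 encodes a kinase that phosphorylates active G protein-coupled receptors. It read 6.55, 6.43 and 6.33 in Fyn-null ethanol pools against 6.90, 7.01 and 6.89 in Fyn-null saline pools, and 6.22, 6.38 and 6.49 in control ethanol pools against 6.60, 6.62 and 6.89 in control saline pools. No ethanol pool reached a saline pool, and groups without overlap in either direction were found for 3.9% of all probe sets. The gene fell by 0.42 (SE 0.0736, limma adjusted p = 0.0064), and its other probe set fell too, by 0.27 (adjusted p = 0.0375). Rgs4, which accelerates GTP hydrolysis on Gi/o and Gq subunits, read 10.74, 10.71 and 10.77 in Fyn-null ethanol pools against 11.03, 10.99 and 10.92 in Fyn-null saline pools. The control values were 10.75, 10.83 and 10.82 after ethanol and 11.02, 11.02 and 10.99 after saline. Ethanol and saline pools were again apart, at -0.23 (SE 0.0459, adjusted p = 0.0135), but the other probe sets of Rgs4 stood at -0.115 and 0.32 and were not called, and the mean over all 3 gave -0.0076. With replicate number as a block Rgs4 was not called (adjusted p = 0.0555).

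Of 10 genes on the Gq side 1 was called, where 6.69% of all genes were, and their median was -0.03 against -0.04 over all genes. Trpc5, a cation channel that opens downstream of Gq-coupled receptors, read 5.66, 5.51 and 5.55 in Fyn-null ethanol pools and 5.23, 4.63 and 5.37 in Fyn-null saline pools. Control ethanol pools read 6.94, 6.23 and 5.89 and control saline pools 5.39, 5.53 and 5.74. Ethanol pools were higher than saline pools within each genotype but overlapped across them, with control ethanol pool 1 far above the rest. The gene rose by 0.65 (SE 0.166, limma adjusted p = 0.0352). The call was lost when any 1 of 8 of the 12 pools was left out (differences of 0.50 to 0.74) and with replicate number as a block (adjusted p = 0.111). Its genotype difference was of similar size but not called. Fyn-null minus control gave -0.63 over both treatments (SE 0.166, limma adjusted p = 0.316), -0.785 after ethanol and -0.475 after saline.

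Scaffold partners (median -0.11 after ethanol over both genotypes) and glutamate handling (median -0.03) had no call, where 6.69% of all genes were called. Among 10 anchoring genes the smallest p after ethanol belonged to Elfn1, a postsynaptic protein that binds mGluR7 across the synapse, at -0.27 over both genotypes (SE 0.0961, limma adjusted p = 0.1). Homer1, the scaffold of group I receptors, was at -0.21 in control mice (adjusted p = 0.327). Among 8 genes of glutamate transport and metabolism the smallest p in the genotype comparisons belonged to Slc17a7, the vesicular glutamate transporter of cortical excitatory neurons and 1 of the 4 excitatory markers above. Over both treatments it stood at -0.37 in Fyn-null against control mice (SE 0.0961, limma adjusted p = 0.316). After ethanol it read 10.20, 9.85 and 9.94 in Fyn-null pools and 10.42, 10.54 and 10.46 in control pools, at -0.48 (SE 0.135, adjusted p = 0.174). These groups did not overlap, which held for 20.3% of all probe sets in that comparison.

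The largest value in that comparison among the signaling genes was that of Gnb1, the G protein beta subunit shared by many receptors. It read 8.92, 8.64 and 8.88 in Fyn-null ethanol pools and 10.26, 11.25 and 11.29 in control ethanol pools. Saline pools were scattered, at 9.05, 9.94 and 10.84 in Fyn-null and 10.58, 9.14 and 11.12 in control mice. The high Fyn-null and the low control pool were those doubted by the higher-mean Fyn probe set. After ethanol the difference was -2.12 (SE 0.494, limma adjusted p = 0.129) and that of its other probe set -1.24 (adjusted p = 0.129). Fitted on the ethanol groups alone, the higher-mean probe set was called (limma adjusted p = 0.01, with 193 of all probe sets). It was also called without both doubted saline pools (limma adjusted p = 0.00922, with 260). Those pools are not in this comparison, so leaving them out changed the shared estimate of spread and not the difference.

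**Figure D4:**
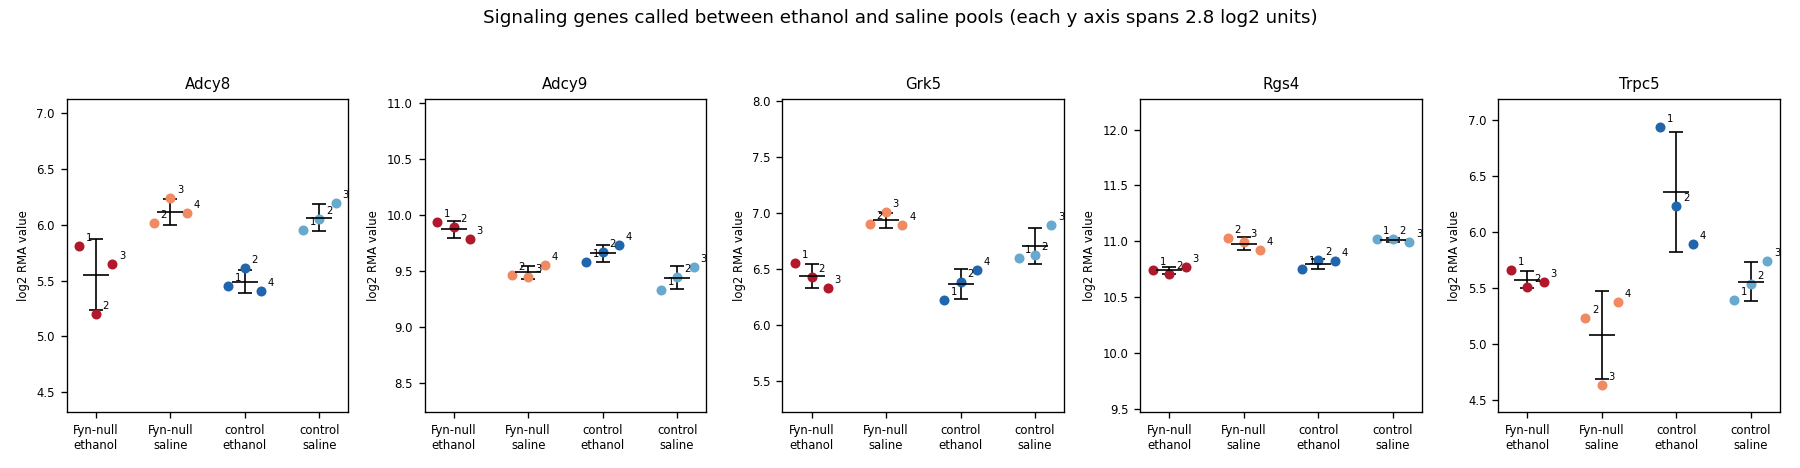
Log2 RMA value (y axis, the same span in every panel) of the 5 signaling genes called between ethanol and saline, in each of the 12 pools by group (x axis). Points are pools with their label numbers, the long bar is the group mean and the short bars are ± 1 SD (n = 3); ethanol and saline pools are apart in Adcy8, Adcy9, Grk5 and Rgs4 and overlap in Trpc5.

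The pattern of each receptor over the 12 arrays was set beside that of the 12323 genes tested, as a description with no test, since the arrays share their groups and normalization. For Grm5 the 3 most alike were Fam91a1 (r = 0.91), Abat (0.90) and Sos2 (0.90), and for its lower-mean probe set, added after its values were seen, Evi5, Pde1a and Zfp267 (0.95 each). Grm2 was most like Rundc3a (0.87), Fam53a (0.86) and Tnn (0.86), and Grm3 most like Rprd2 (0.92), Myh9 (0.89) and Zeb2 (0.88). For Grm4 they were Dnajc24 (0.90), Kcnj8 (0.87) and Emilin1 (0.86), where r for Dnajc24 was 0.59 without the 2 farthest arrays. Grm7 was most like Dpy19l4 (0.96), Tmtc1 (0.92) and Pcbp1 (0.91), and Grm8 most like Huwe1 (0.87), Ppp4r2 (0.86) and Pja1 (0.84). None of the 6 receptors was among the 3 most alike of another. Between receptors r ran from -0.62 (Grm3 and Grm4) to 0.63 (Grm5 and Grm8).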

How the data were processed

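Arrays of medial PFC were read from the deposited table of log2 values, which the authors made with affy and RMA per the submitters' processing notes (versions not given in the sources used here; whether they hold the batch step of the Methods is not stated either). Control probe sets (64) and the 45% of the other 45037 with the lowest mean (under 5.15) were left out, which left 24770 probe sets. Symbols came from the platform annotation, updated by gene ID through RefSeq. Each of 12323 genes was represented by its probe set of highest mean. limma 3.58.1 in R 4.3.3 (lmFit, eBayes) was fitted to 4 group means and to additive terms for genotype and treatment, with Benjamini-Hochberg adjustment over all probe sets. The fits were run on simulated data with planted shifts and independent noise, a check of the fitting steps and not of the calls made here. S-scores were not computed, as they need probe-level data. The number of arrays limits the precision (median SE 0.108 for 3 against 3 and 0.0764 for 6 against 6). The receptors, the signaling lists and the alternatives were chosen with earlier results of these data known. Named genes were all receptor and Fyn probe sets, the 3 genes most alike each receptor and, per list and comparison, the called genes or the one with the smallest p, of which only some are described. Pools with the same number were not taken as pairs: their residuals correlated above 0.1 in 3 of 13 cases (range -0.43 to 0.32). Alternatives were a filter of 0 or 60%, quantile normalization, a block for replicate number, robust eBayes with a trend, array weights, a fit of the compared groups alone, the 3' to 5' difference as covariate, averaging a gene's probe sets, and leaving out each array or both doubted saline pools.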

Additional observations from a re-analysis of the deposited data

Results flagged for a closer look

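In groups of 6 pools, 32 checks of a receptor probe set for a pool that stands apart (a gap over 0.625 of the group's range) marked 2, where chance marks about 5% of such groups. The lower-mean Grm5 probe set in Fyn-null ethanol pool 1 was at 8.10, with the next of the 6 Fyn-null pools at 7.67. Grm2 in control ethanol pool 2 was at 8.73, with the next of the 6 ethanol pools at 8.52. A signal also appeared in data outside the tests: the Grm7 probe set below the filter read 4.23, 4.03 and 3.65 in control ethanol pools and 3.32, 3.38 and 3.46 in control saline pools, which did not overlap, as was so for 23% of the probe sets tested in that comparison, a difference of 0.58 (limma adjusted p = 0.176 in a fit of all probe sets without a filter). In Fyn-null pools it read 3.66, 3.53 and 3.32 after ethanol and 3.78, 2.95 and 3.39 after saline.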

How the results depend on the processing

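Under the alternatives run, the count of receptor probe sets called was 0 wherever it was run, of 8 probe sets, or of 9 without a filter and 7 with the filter of 60%, leaving out each pool included, with 1 exception: 1 with array weights (Fyn-null against control after ethanol, the lower-mean Grm5 probe set). The fit of the compared groups alone was run for the 4 comparisons of single groups. The replicate block changed no receptor call. Signs near 0 did turn: of 906 alternative values for the 42 differences of the 6 genes, 111 turned sign, in 31 differences of at most 0.122 in size, and none became a call; those of single genes are given here only where the report prints the difference. Ethanol minus saline over both genotypes became -0.00269 for Grm5 with the block of replicate numbers, -0.0135 with array weights and -0.0126 without both doubted pools. For Grm2 it became 0.00486 with quantile normalization, 0.00294 with array weights, 0.0235 with the 3' to 5' covariate and 0.0127 without both pools. For Grm3 it became 0.012 without both pools, for Grm7 0.0114 with quantile normalization and 0.144 with the covariate, and for Grm8 -0.0361 with array weights and -0.054 without both pools. Fyn-null minus control over both treatments became 0.00852 (block), 0.00173 (array weights) and 0.000517 (without both pools) for Grm5 and 0.00492 (block) for Grm3. The response of Grm7 in control mice became 0.0446 with the covariate, and the saline difference of the lower-mean Grm5 probe set 0.0678 with the block. Leaving out 1 pool at a time, ethanol differences ranged from -0.0305 to 0.0583 for Grm5, -0.0698 to 0.0225 for Grm7 and -0.036 to 0.0426 for Grm8. Genotype differences ranged from -0.0525 to 0.0363 for Grm5, -0.0576 to 0.0244 for Grm3, -0.00184 to 0.0867 for Grm4 and, for the lower-mean Grm5 probe set after saline, -0.415 to 0.125. The causes were not tested. With the block as a term, Rgs4 (adjusted p = 0.0555) and Trpc5 (0.111) were not called, and Adcy8, Adcy9 and Grk5 were; with the covariate none of the 5 was. Slc17a7 after ethanol was called with array weights (adjusted p = 0.00821). The count of all probe sets called between ethanol and saline ran from 27 with the covariate to 2098 with array weights. It ran from 15 to 2781 for the response of Fyn-null mice, 16 to 506 for that of control mice, 0 to 3975 between the genotypes after ethanol, 0 to 44 after saline and 0 to 669 over both treatments, and was 0 throughout for the interaction.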
